A study of Mus musculus with 2 samples.

Results

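Oncofetal genes are switched on in the embryo or placenta, are largely silent in most adult tissues, and return in many tumors. The 7 genes described here were taken by name from the 32285 genes in the count tables: Rhox5, Rhox2d, Hmga2, Igf2bp1, Igf2bp2, Igf2bp3 and Lin28b. They were chosen with earlier results of these data known, so their counts beside the share over all genes are descriptions and not tests. All 7 were found, and each had UMIs in both libraries. A UMI (unique molecular identifier) marks 1 captured RNA molecule.

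The cells came from tumors of Lewis lung carcinoma (LLC), a mouse lung carcinoma line that grows in C57BL/6 mice, and were measured with a 3′ single-cell protocol of 10X Genomics, v3.1 in the labels and a v3 kit in the study's methods. There were 2 libraries, each from cells pooled from 3 tumors. The control library, sGC Ctr, came from Gucy1b1 flox/flox mice. The other, sGC ΔPC, came from Cspg4-CreER T2::Gucyc1b1 flox/flox mice (gene name as labelled), in which the Cspg4 promoter drives a tamoxifen-dependent Cre in pericytes and in other cells that use Cspg4, so that the floxed Gucy1b1 gene, a subunit of soluble guanylyl cyclase, can be lost there. Mice of both groups were given tamoxifen (5 doses) when 4 weeks old, LLC cells were placed under the skin at 8 weeks, and the tumors were taken 2 weeks later. The control mice carried no Cre, and the tumor cells themselves came from the LLC line in both groups.

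With 1 library per group no test of the groups was possible, and a difference between the libraries has no replicate check. Intervals below are exact 95% intervals that cover counting error only. A level is given in UMIs per 1000000 UMIs of the cells summed (CPM). CPM of this 3′ assay depend on how well the end of each transcript is primed, so levels are compared between cells and not between genes.

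The libraries held 15007 and 25631 barcodes, of which 12220 in sGC Ctr and 22498 in sGC ΔPC were kept, with medians of 35776.5 and 8685 UMIs per cell. Cells were clustered without the 7 genes and named by fixed markers as cancer-like, macrophage-like and so on. The 10 cancer-like clusters held 6019 cells of sGC Ctr and 9063 of sGC ΔPC. They differed in depth (medians 52348 and 18128 UMIs) and in which clusters held most cells, clusters 1 and 9 in sGC Ctr and clusters 4, 11 and 13 in sGC ΔPC. A share of 17.2% and 28.8% of kept cells stayed unnamed. Of the barcodes, 131 occurred in both libraries, 98 of them among kept cells. In pericyte-like cells the targeted gene Gucy1b1 stood at 53.5 CPM (66 UMIs in 54 cells) in sGC Ctr and 11.02 CPM (23 UMIs in 215 cells) in sGC ΔPC, a log2 difference of -2.28 (-3.03 to -1.58), lower in the library labelled as the deletion.

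The members act in 3 connected ways. Rhox5 and Rhox2d encode homeobox proteins of the X-linked Rhox cluster, which is used in the placenta and the germ line. Hmga2 encodes a small chromatin protein whose AT-hooks bind and bend DNA, and the Igf2bp genes encode 3 related proteins that bind mRNAs and protect or localize them. Lin28b encodes an RNA-binding protein that blocks the maturation of let-7 microRNAs. The let-7 family rises as tissues mature and silences mRNAs that carry its target site, and Hmga2, Lin28b and the Igf2bp genes are textbook let-7 targets.

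The target sites are shown because let-7 links most of the members. The mature let-7a, as RefSeq gives it for GRCm38.p6, is printed with its seed (bases 2 to 8) in capitals. The same seed stands in 9 mature let-7 names of that table.
mmu-let-7a-5p: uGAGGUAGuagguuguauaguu
A match to that seed reads CTACCTC in the mRNA. In the longest annotated 3′ UTR of each gene (mm10), read on the mRNA strand only, Hmga2, Igf2bp1 and Lin28b held 4 matches each, and Igf2bp2 and Igf2bp3 held 1 each. Rhox5 and Rhox2d held 0, in UTRs of 112 and 88 bases, so short that only 0.752% and 1.08% of genes with UTRs of like length (0.8 to 1.25 times as long) held any. Of 20831 genes with a 3′ UTR, 1897 (9.11%) held a match and 32 (0.154%) held 3 or more. Of 2439 genes with a UTR of like length to that of Hmga2, 16.0% held a match and 0.0820% held at least as many as Hmga2. At least as many matches stood in 0.166% of genes of like length to Igf2bp1 and in 0.221% of those to Lin28b, but in 12.04% and 13.3% of those to Igf2bp2 and Igf2bp3. A match is a description of letters and not evidence that let-7 acts there, and mature microRNAs are not captured by this assay.

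The first match of each gene is printed 5′ to 3′ with the 7 matching letters in capitals. All 5 lie in a 3′ UTR on the minus strand and are followed by an A.
Hmga2, chr10:120364224-120364248: gcgccgacattcaatttCTACCTCa
Lin28b, chr10:45381022-45381046: tcacccgggcgggaagtCTACCTCa
Igf2bp1, chr11:95961778-95961802: gtgctgtgcgaagtaaaCTACCTCa
Igf2bp2, chr16:22059473-22059497: aaacacacaaataaaagCTACCTCa
Igf2bp3, chr6:49086787-49086811: cgtgcatttttactcaaCTACCTCa

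The members also differ in gene length, which is set beside a later result. Rhox5 (chrX:37804842-37808876, plus strand) and Rhox2d (chrX:37493428-37497623, plus strand) span 4.04 and 4.20 kb, each with 4 exons. Hmga2 spans 115 kb of chromosome 10, Lin28b 110 kb of the same chromosome, Igf2bp3 130 kb of chromosome 6, Igf2bp2 104 kb of chromosome 16 and Igf2bp1 48.8 kb of chromosome 11. These spans come from the mm10 annotation. The counts of Rhox2d are uncertain, because 109 of the 311 stretches of 90 bases in its last 400 bases (35.05%) also occur in another Rhox2 transcript, whereas Rhox5 shares 0 of 311.

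Over all clusters Rhox5 and Rhox2d were the pair of members whose levels rose and fell most closely together (Pearson r 0.98). Among cancer-like clusters their r was 0.82, where Hmga2 and Igf2bp2 had 0.89. The promoters of Rhox5 and Rhox2d are therefore printed, from 250 bases before to 50 bases after the RefSeq start (GRCm38.p6, plus strand). The capitals mark CTTCCGG, letters chosen after the sequences were seen.
Rhox5, chrX:37754358-37754657: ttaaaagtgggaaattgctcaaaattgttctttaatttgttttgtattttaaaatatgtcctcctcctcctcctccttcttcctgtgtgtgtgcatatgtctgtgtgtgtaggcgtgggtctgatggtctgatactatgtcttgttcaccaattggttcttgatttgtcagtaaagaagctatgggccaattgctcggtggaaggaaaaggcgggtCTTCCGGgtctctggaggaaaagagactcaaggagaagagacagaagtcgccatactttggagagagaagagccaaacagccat
Rhox2d, chrX:37493160-37493459: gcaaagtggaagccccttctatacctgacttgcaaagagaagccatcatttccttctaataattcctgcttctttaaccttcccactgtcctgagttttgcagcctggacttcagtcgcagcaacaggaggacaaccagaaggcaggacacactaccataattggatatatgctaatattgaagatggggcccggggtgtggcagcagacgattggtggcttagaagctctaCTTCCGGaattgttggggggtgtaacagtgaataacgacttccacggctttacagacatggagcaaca
The RefSeq start of Rhox5 is a distal one, upstream of the start in the annotation used for its span. The 7 letters begin at -34 in Rhox5 and -18 in Rhox2d, and also occur in the promoters of Rhox2g (-13) and Rhox2h (-29). On either strand they occur in 2910 of 32851 RefSeq promoters (8.86%), and they were not found in the windows of Hmga2, Igf2bp2, Igf2bp3 and Lin28b. Igf2bp1 had no entry.

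In cancer-like cells the level of each member was close in the 2 libraries. Rhox5 stood at 649 CPM in sGC Ctr (646 to 652, 227924 UMIs) and 634 CPM in sGC ΔPC (631 to 637, 181890 UMIs). Hmga2 stood at 433 CPM (431 to 436, 152173 UMIs) and 476 CPM (474 to 479, 136583 UMIs). Both genes were found in nearly every cancer-like cell, Rhox5 in 99.7% and 98.4% and Hmga2 in 98.8% and 93.7%.

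Igf2bp2, the member of its family that adult tissues keep most widely, stood at 100.2 CPM (35200 UMIs) in sGC Ctr and 100.1 CPM (28721 UMIs) in sGC ΔPC. Igf2bp3, a fetal paralog, gave 14.6 CPM (5131 UMIs) and 15.3 CPM (4397 UMIs), and Igf2bp1 gave 8.07 CPM (2833 UMIs) and 7.71 CPM (2211 UMIs). Cells with at least 1 UMI of Igf2bp3 made up 51.7% and 31.6% of cancer-like cells, and of Igf2bp1 32.7% and 17.9%, shares that move with the depth of the cells.

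Rhox2d gave 28.7 CPM (10088 UMIs) in sGC Ctr and 27.7 CPM (7939 UMIs) in sGC ΔPC. Lin28b was near the limit of detection, with 1.05 CPM (368 UMIs) and 1.12 CPM (320 UMIs), in 5.70% and 3.28% of cancer-like cells. Its paralog Lin28a had 1 and 4 UMIs in these cells. Fewer than 1 UMI of Lin28b per cell cannot tell a few cells with the transcript from a low level in many.

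Rhox5, Hmga2 and Igf2bp2 were found in most cancer-like cells. The median cancer-like cell of sGC Ctr had 31 UMIs of Rhox5 (10th to 90th percentile 12 to 72), 20 of Hmga2 (4 to 53) and 5 of Igf2bp2 (1 to 11). In sGC ΔPC the medians were 12 (3 to 48), 6 (1 to 42) and 1 (0 to 9). Cells without a UMI of Rhox5 numbered 20 of 6019 and 144 of 9063. When each cell was thinned to 2000 UMIs, leaving out 14 and 82 shallower cells, Rhox5 was found in 68.1% (66.9 to 69.3) and 71.5% (70.5 to 72.4) and Hmga2 in 52.0% (50.7 to 53.3) and 51.4% (50.4 to 52.4) of cancer-like cells. At that depth Hmga2 was found in 51.7% of cells with and 52.7% of cells without Rhox5 in sGC Ctr, and in 50.7% and 53.2% in sGC ΔPC. Cells with Rhox5 thus held Hmga2 about as often as cells without it.

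Outside the cancer-like clusters every class held UMIs of Rhox5 and Hmga2. The plot of levels by class shows the 7 genes lower together in most other classes than in cancer-like cells. Rhox5 was lowest in fibroblast-like cells of sGC Ctr (41.9 CPM, 34.7 to 50.1) and in monocyte-like cells of sGC ΔPC (66.5 CPM, 60.9 to 72.5). Among the other named classes it was highest in T cell-like cells, at 579 CPM (543 to 618) and 594 CPM (568 to 622). The unnamed cells together stood at 616 and 597 CPM.

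**Figure D1:**
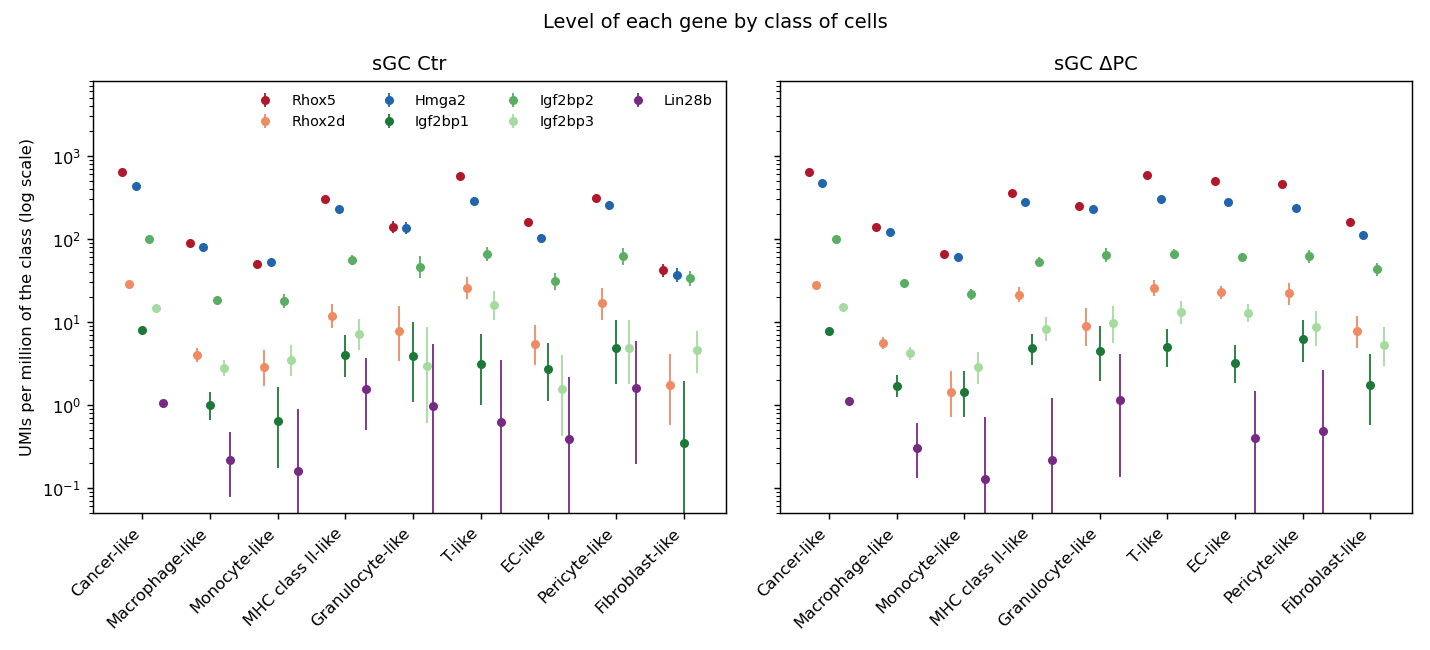
Level of each of the 7 genes (CPM of the class, log scale) in cancer-like cells and 8 other classes, sGC Ctr on the left and sGC ΔPC on the right. Points are sums over all cells of a class and bars are exact 95% counting intervals; a gene with 0 UMIs in a class has no point. Most genes drop from cancer-like to macrophage-like, monocyte-like and fibroblast-like cells, and the T cell-like class of sGC Ctr reaches 579 CPM of Rhox5 against 649 CPM in cancer-like cells.

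The T cell-like cluster is small and uneven. It held 155 and 319 cells with median depths of 3038 and 5058 UMIs, and the keratins Krt8 and Krt18, which mark the carcinoma cells, stood in it at 88.1% and 97.1% of their level in cancer-like cells. With each cell thinned to 2000 UMIs, so that deep cells no longer weigh more, Rhox5 in this class was at 193 CPM (142 to 256) in sGC Ctr and at 443 CPM (386 to 506) in sGC ΔPC. What part of these UMIs came from free RNA, from doublets and from the cells themselves was not tested.

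Against granulocyte-like and T cell-like cells together, 0 of 7 members were at least 4-fold higher in cancer-like cells in both libraries, where 3 of 13870 genes (0.0216%) were. The folds ran from 1.29 for Igf2bp3 to 2.76 for Lin28b, both in sGC ΔPC, the latter on 2 UMIs in those cells (log2 1.47, -0.40 to 4.52). Rhox5 stood at 409 and 472 CPM in those cells, a fold of 1.59 in sGC Ctr and 1.34 in sGC ΔPC. Most of these UMIs lay in T cell-like cells, 936 of 1077 in sGC Ctr and 1896 of 2339 in sGC ΔPC. The folds of Rhox5 thus describe mainly the T cell-like cluster with its high keratin level. Granulocyte-like cells alone had less Rhox5, 138.8 CPM (116.8 to 163.7) in sGC Ctr and 250.9 CPM (228.0 to 275.3) in sGC ΔPC. Against them alone the count was also 0 of 7. Leaving out host cells with 25% or more of the keratin level of cancer-like cells, and cancer-like cells with 25% or more of the macrophage marker level of macrophage-like cells, gave a fold of 4.06 and 2.96 for Rhox5, and the count stayed at 0 of 7, where 56 of 13805 genes (0.406%) passed.

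Macrophage-like cells gave a wider gap. They held 2093 and 3711 cells, mostly of cluster 0 in sGC Ctr and of cluster 3 in sGC ΔPC, and their keratin level was 14.6% and 19.6% of that in cancer-like cells. The class pools unlike clusters, with keratins at 54.4 and 49.1 CPM in cluster 0 but at 481 and 286 CPM in cluster 3. Cluster 3 gave 1302 of the 2492 UMIs of Rhox5 in the class in sGC Ctr, on 158 cells. In sGC ΔPC it gave 2299 of 3611, on 2019 cells, so the class values below mix these clusters in unlike parts. Rhox5 was at 89.2 CPM in sGC Ctr and 138 CPM in sGC ΔPC, a fold of 7.28 and 4.61 for cancer-like cells. Rhox2d was 7.17-fold and 5.01-fold higher in cancer-like cells and Igf2bp1 8.05-fold and 4.49-fold higher, so that 3 of 7 members passed 4-fold in both libraries, where 417 of 14087 genes (2.96%) did. Hmga2 was 5.45-fold and 3.93-fold higher, Igf2bp2 5.43-fold and 3.38-fold, Igf2bp3 5.17-fold and 3.66-fold and Lin28b 4.88-fold and 3.66-fold. In macrophage-like cells Igf2bp1 had 28 and 45 UMIs, with an interval in sGC ΔPC (log2 1.74 to 2.63) that reached below 4-fold, and Lin28b had 6 and 8. The 4 members that missed did so in sGC ΔPC alone, and the count past 4-fold moved with the choice of cells. It was 7 of 7 in cells with low shares of other RNA, where 925 of 14048 genes (6.58%) passed, and leaving out macrophage-like cells with keratin RNA raises the fold of any gene of the cancer cells by construction. There Lin28b rested on 3 macrophage-like UMIs in each library, with intervals from log2 1.54 and from 1.42. In sGC ΔPC the intervals of the 3 Igf2bp genes also reached below 4-fold.

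The share of macrophage-like cells with a UMI of Rhox5 was 40.4% and 41.6%, at median depths of 11651 and 3636 UMIs. Granulocyte-like cells, a class of blood origin taken here as background, gave 25.3% and 33.8% at 2057 and 2137 UMIs. Thinned to 2000 UMIs, the share was 10.5% in macrophage-like and 21.9% in granulocyte-like cells of sGC Ctr, and 23.8% and 30.2% in sGC ΔPC. The thinning left out 33 and 1275 shallower macrophage-like cells and 212 and 336 granulocyte-like cells. In the deeper cells that remained, macrophage-like cells held Rhox5 less often than granulocyte-like cells. Whether these UMIs came from the cells themselves or from other cells was not tested. T cell-like, EC-like (endothelial) and pericyte-like cells of sGC ΔPC stood higher, at 50.4%, 56.9% and 57.1%, and their keratin levels were 97.1%, 78.9% and 74.6% of that in cancer-like cells.

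Each member was also set against the keratins of the same cells. In cancer-like cells there were 93.8 UMIs of Rhox5 per 100 keratin UMIs in sGC Ctr and 107.7 in sGC ΔPC. Over the 16 values of the other 8 classes the ratio ran from 56.5 (pericyte-like, sGC Ctr) to 176 (fibroblast-like, sGC ΔPC), while among the cancer-like clusters it ran from 60.9 (cluster 15, sGC Ctr) to 166 (cluster 9, sGC ΔPC). Hmga2 had 62.6 and 80.9 per 100 keratin UMIs in cancer-like cells and 46.8 to 121 in the other classes, within its range over the cancer-like clusters (29.7 to 183).

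Igf2bp2 stood outside the range of the cancer-like clusters in some classes. Per 100 UMIs of Rhox5 there were 15.4 (15.3 to 15.6) of Igf2bp2 in cancer-like cells of sGC Ctr and 15.8 (15.6 to 16.0) in sGC ΔPC, and single cancer-like clusters ran from 7.17 to 23.7. Fibroblast-like cells of sGC Ctr had 79.8 (60.3 to 105.4, from 95 UMIs of Igf2bp2), and those of sGC ΔPC had 26.6 (21.6 to 32.5, from 123 UMIs). Fibroblast-like cells were also the class with the lowest keratin level in sGC Ctr, 6.51% of that in cancer-like cells.

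Monocyte-like cells had 35.9 (28.7 to 44.6) and 32.3 (26.9 to 38.5) UMIs of Igf2bp2 per 100 of Rhox5, granulocyte-like cells 33.3 (23.4 to 46.7) and 25.5 (20.6 to 31.4), and macrophage-like cells 20.7 (18.8 to 22.8) and 21.5 (19.9 to 23.3). All 4 classes thus lay above the sum of cancer-like cells beyond counting error in both libraries, but macrophage-like cells lay inside the range of the cancer-like clusters, as did T cell-like cells with 11.4 and 11.02.

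Hmga2 gave a second yardstick. Per 100 UMIs of Hmga2, cancer-like cells had 23.1 (22.9 to 23.4) and 21.0 (20.8 to 21.3) of Igf2bp2, with 18.5 to 28.5 over their clusters, and fibroblast-like cells had 90.5 (67.8 to 120.6) and 38.7 (31.2 to 47.8). Monocyte-like cells, at 34.5 (27.6 to 42.8) and 35.02 (29.2 to 41.9), again lay above that range. Granulocyte-like cells did so in sGC Ctr, at 34.1 (23.9 to 47.7), and not in sGC ΔPC (28.0). EC-like (endothelial) cells also did so only in sGC Ctr, at 30.3 (23.2 to 39.1). In sGC Ctr the intervals of these classes reached into the range. Macrophage-like cells of sGC Ctr stood at 23.2 (21.1 to 25.6). Igf2bp3 in the fibroblast-like cells of sGC Ctr stood at 10.9 (5.65 to 19.4) per 100 Rhox5 on 13 UMIs, against 2.25 in cancer-like cells. In sGC ΔPC it stood at 3.25 (1.80 to 5.41) against 2.42, and the cancer-like clusters ran from 1.36 to 3.86.

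Within the cancer-like cells Rhox5 and Rhox2d on the one hand and Hmga2 and Igf2bp2 on the other tended to opposite ends of the clusters. The 9 clusters with at least 50 cells in each library (cluster 20, with 38 cells in sGC Ctr, was left out) were each compared with the other cancer-like cells. Of the 63 pairs of a member and a cluster, 0 passed 2-fold the same way in both libraries, where 5277 of 123345 pairs over all genes (4.28%) did. The direction was the same in both libraries in 55 of 63 pairs. That share was not taken over all genes, and the clusters were made from both libraries together, so it is not a result about these genes.

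Rhox5 was highest in cluster 11, at 869.9 CPM (log2 0.44 over the other cancer-like cells) in sGC Ctr and 783 CPM in sGC ΔPC. It was lowest in cluster 9, the cluster with mesenchymal markers, at 514 and 491 CPM. Rhox2d had the same extremes, with 38.8 CPM in cluster 11 of sGC Ctr and 21.1 CPM in cluster 9 of sGC ΔPC.

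Hmga2 ran the other way in most clusters. Cluster 11 of sGC Ctr had its lowest level, 306 CPM, and cluster 1 of sGC ΔPC its highest, 661 CPM. In cluster 1 the level of Hmga2 was 576 CPM in sGC Ctr, and that of Rhox5 only 529 and 514 CPM. Cluster 9 was an exception in sGC Ctr, where Hmga2 too was lower than in the other cancer-like cells (388 CPM, log2 -0.18, -0.20 to -0.16), while in sGC ΔPC it was higher (544 CPM, log2 0.21). Igf2bp2 ran from 62.4 CPM in cluster 11 of sGC Ctr to 127 CPM in cluster 15, the hypoxic cluster, of the same library.

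Hypoxic cells set the Igf2bp genes apart. Igf2bp3 had its lowest level there, 9.41 CPM (log2 -0.67) in sGC Ctr and 12.4 CPM (log2 -0.33) in sGC ΔPC. Its highest was in the mesenchymal cluster 9, 17.5 and 18.9 CPM. In the hypoxic cluster Igf2bp1 was lower in sGC Ctr, at 6.53 CPM (log2 -0.32, -0.56 to -0.09). In sGC ΔPC, at 7.11 CPM, its difference was within counting error (log2 -0.12, -0.39 to 0.13). Igf2bp2 was at 127 and 120.3 CPM in the hypoxic cluster, and in sGC ΔPC cluster 12 held more of it.

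Clusters of the same cycle phase could differ. Clusters 4 and 12 both carried markers of the G2/M phase, when cells enter division. Rhox5 stood at 819 and 756 CPM in cluster 4 but at 620 and 584 CPM in cluster 12. Hmga2 stood at 343 and 353 CPM in cluster 4 and at 514 and 577 CPM in cluster 12. Igf2bp2 followed Hmga2, with 76.3 and 77.5 CPM in cluster 4 and 115 and 123 CPM in cluster 12.

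**Figure D2:**
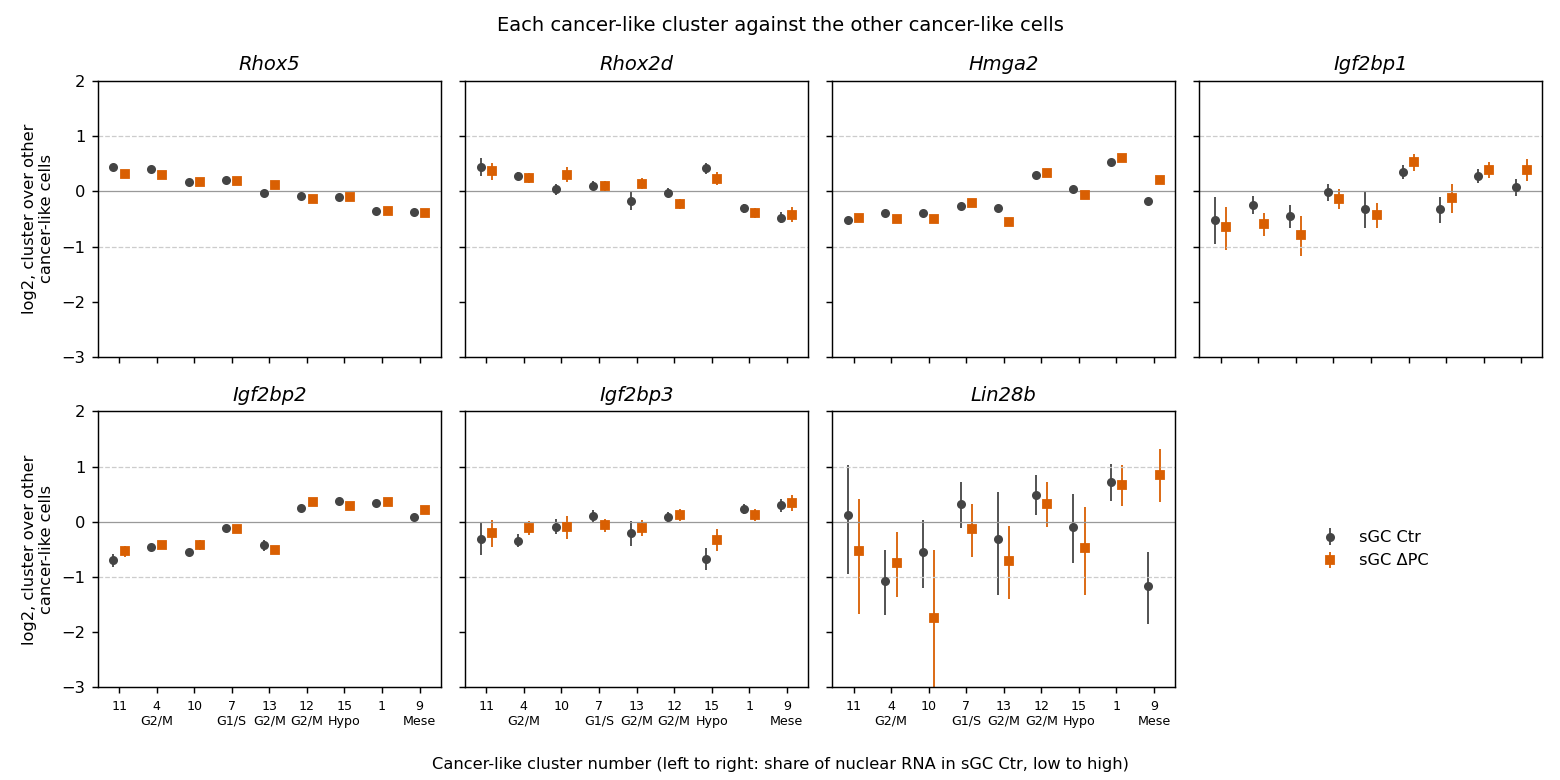
Log2 level of each gene in a cancer-like cluster over the other cancer-like cells (1 panel per gene, 9 clusters ordered by the share of nuclear RNA in sGC Ctr), circles for sGC Ctr and squares for sGC ΔPC, with exact 95% counting intervals; dashed lines mark 2-fold. Rhox5 and Rhox2d go down from left to right, Rhox5 from 0.44 in cluster 11 of sGC Ctr to -0.40 in cluster 9 of sGC ΔPC, while Hmga2 and Igf2bp2 start below 0, and the intervals of Lin28b are wide because it had 368 and 320 UMIs in these cells.

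The clusters differed in their share of nuclear RNA, the percentage of UMIs from a fixed list of transcripts that stay in the nucleus. The list holds Kcnq1ot1, Malat1, Neat1, Meg3 and Xist, so the share is not a measure of all nuclear RNA. Kcnq1ot1 and Neat1 are also among the leading genes of cluster 1. The share ran from 0.616% in cluster 11 of sGC Ctr to 3.43% in cluster 9 of sGC ΔPC. Over the 18 points of 9 clusters in 2 libraries, a higher share went with a lower level of Rhox5 (Pearson r -0.95) and of Rhox2d (r -0.75). Hmga2 (r 0.78), Igf2bp2 (r 0.80), Igf2bp1 (r 0.69), Igf2bp3 (r 0.57) and Lin28b (r 0.46) were higher where the share was higher.

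These correlations describe clusters that share a library and its depth, so they carry no p-value. Grouping the same cells by their own share instead of by cluster gave the same order, which is not a second set of data. Cancer-like cells were ranked by nuclear RNA and divided into 4 bins of equal size. In sGC Ctr Rhox5 was at 801 CPM in the lowest bin and at 685, 578 and 487 CPM in the next ones. In sGC ΔPC it was at 755, 714, 622 and 535 CPM. The intervals of neighbouring bins, which cover counting error of the summed UMIs and not the spread among cells, did not overlap.

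Hmga2 had the opposite order over the same bins, with 327, 424, 481 and 529 CPM in sGC Ctr and 325, 403, 496 and 578 CPM in sGC ΔPC. Igf2bp2 was at 77.3 CPM in the lowest and 121 CPM in the highest bin of sGC Ctr, and at 75.1 and 115 CPM in sGC ΔPC. Rhox2d was at 34.8 and 22.4 CPM, and at 33.9 and 23.4 CPM.

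Bins by depth ordered Rhox5 in opposite ways in the 2 libraries. By UMIs per cell, Rhox5 was at 569.8 CPM in the shallowest and 685 CPM in the deepest bin of sGC Ctr, but at 717 and 617 CPM in sGC ΔPC. Hmga2 was higher in the deepest bin of both, with 352 and 447 CPM and with 334 and 533 CPM. In sGC ΔPC, Rhox5 fell and Hmga2 rose with depth, the same directions as over the nuclear RNA bins. Depth and nuclear RNA were not separated there.

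**Figure D3:**
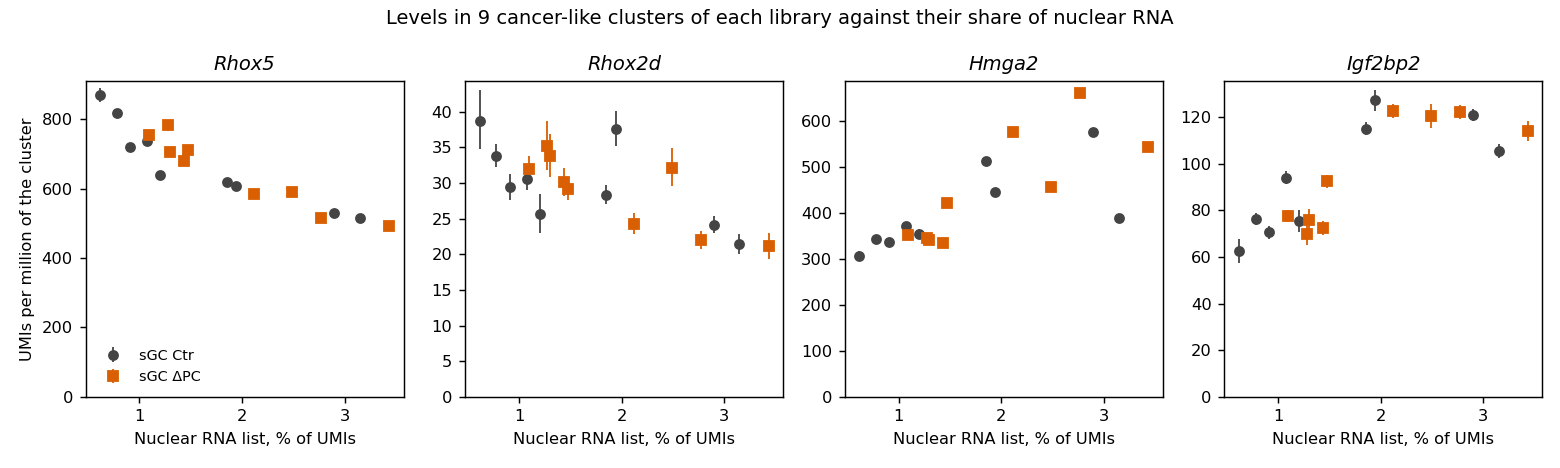
Level of Rhox5, Rhox2d, Hmga2 and Igf2bp2 (CPM of the cluster) against the share of nuclear RNA (% of UMIs) in 9 cancer-like clusters of each library, circles for sGC Ctr and squares for sGC ΔPC, bars exact 95% counting intervals. Rhox5 goes from 869.9 CPM at 0.616% to 491 CPM at 3.43%, while Hmga2 and Igf2bp2 go up.

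The ratio of Hmga2 to Rhox5 summarizes this contrast. It ran from 35.1 UMIs of Hmga2 per 100 of Rhox5 in cluster 11 of sGC Ctr to 129 in cluster 1 of sGC ΔPC. For all cancer-like cells it was 66.8 (66.3 to 67.2) in sGC Ctr and 75.1 (74.6 to 75.6) in sGC ΔPC. In the other classes it ran from 50.0 in T cell-like to 104.1 in monocyte-like cells, both of sGC Ctr.

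An unnamed cluster carried the contrast further. Cluster 23 held 226 and 237 cells with medians of only 1676 and 1805 UMIs, was led by Gm26917, Tsix, Kcnq1ot1 and other nuclear transcripts, and drew 12.9% and 13.3% of its UMIs from the nuclear list. Its keratin level, 222 and 245 CPM, was below that of the cancer-like cells (692 and 589 CPM). Here Hmga2 reached 1037 (808 to 1350) per 100 Rhox5 in sGC Ctr and 547 (455 to 663) in sGC ΔPC.

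Rhox5 in cluster 23 was at 147 CPM (68 UMIs) and 232 CPM (135 UMIs), log2 -2.15 and -1.45 against cancer-like cells. Hmga2 was at 1521 CPM (705 UMIs) and 1267 CPM (739 UMIs), log2 1.81 and 1.41. Igf2bp2 was at 293 CPM (136 UMIs) and 211 CPM (123 UMIs), log2 1.55 and 1.08.

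The estimates of all 3 Igf2bp genes were above 2-fold in both libraries, Igf2bp1 with log2 2.35 (1.61 to 2.99) and 1.15 (0.09 to 2.04) on 19 and 10 UMIs, and Igf2bp3 with log2 1.49 (0.76 to 2.13) and 1.16 (0.45 to 1.79) on 19 and 20 UMIs. In sGC ΔPC the intervals of all 3 reached below 2-fold, that of Igf2bp2 to 0.81. Lin28b gave log2 3.04 and 2.21 on 4 and 3 UMIs, and in sGC ΔPC its interval included 0 (-0.08 to 3.77). Rhox2d had 3 and 8 UMIs, log2 -2.15 (-4.43 to -0.60) and -1.01 (-2.22 to -0.03).

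Such shifts were common in this cluster. Of 4885 genes with at least 10 UMIs expected in it, 987 (20.2%) were at least 2-fold higher and 675 (13.8%) at least 2-fold lower in both libraries. Igf2bp1 and Igf2bp3, with fewer than 10 expected UMIs, belong to the 8421 genes with at least 3 expected, of which 2343 (27.8%) were higher and 735 (8.73%) lower, and Lin28b to neither set. The ratio went with gene length. Genes spanning up to 5 kb had a median log2 of -1.22 in sGC Ctr and -0.90 in sGC ΔPC, and genes spanning over 100 kb had 1.49 and 1.11.

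By the annotated spans used here, each member had the sign of the median of its span range. Rhox5, of 4.04 kb, and Rhox2d, of 4.20 kb, were the low ones, and Hmga2, Igf2bp2, Igf2bp3 and Lin28b, all over 100 kb, were among the high ones. From the distal RefSeq start, in the promoter window chrX:37754358-37754657, Rhox5 would span more and fall in a range whose median lay above 0. Its match in sign thus holds only for the annotated start. Across 4883 genes the correlation of log2 span with the log2 ratio was 0.58 and 0.54, a value over genes, which are not independent. Against the median of its own span range, Rhox5 was at log2 -0.92 in sGC Ctr and -0.56 in sGC ΔPC, and Hmga2 at 0.32 and 0.30. Igf2bp2 (0.06 and -0.04) and Igf2bp3 (-0.00 and 0.05) lay close to the median of genes over 100 kb. Igf2bp1, of 48.8 kb, was at 1.86 and 0.83. The medians rest on genes with at least 10 expected UMIs, which Igf2bp1 (3.74), Igf2bp3 (6.77) and Lin28b (0.486) did not reach. For these members the comparison is thus with better-counted genes.

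**Figure D4:**
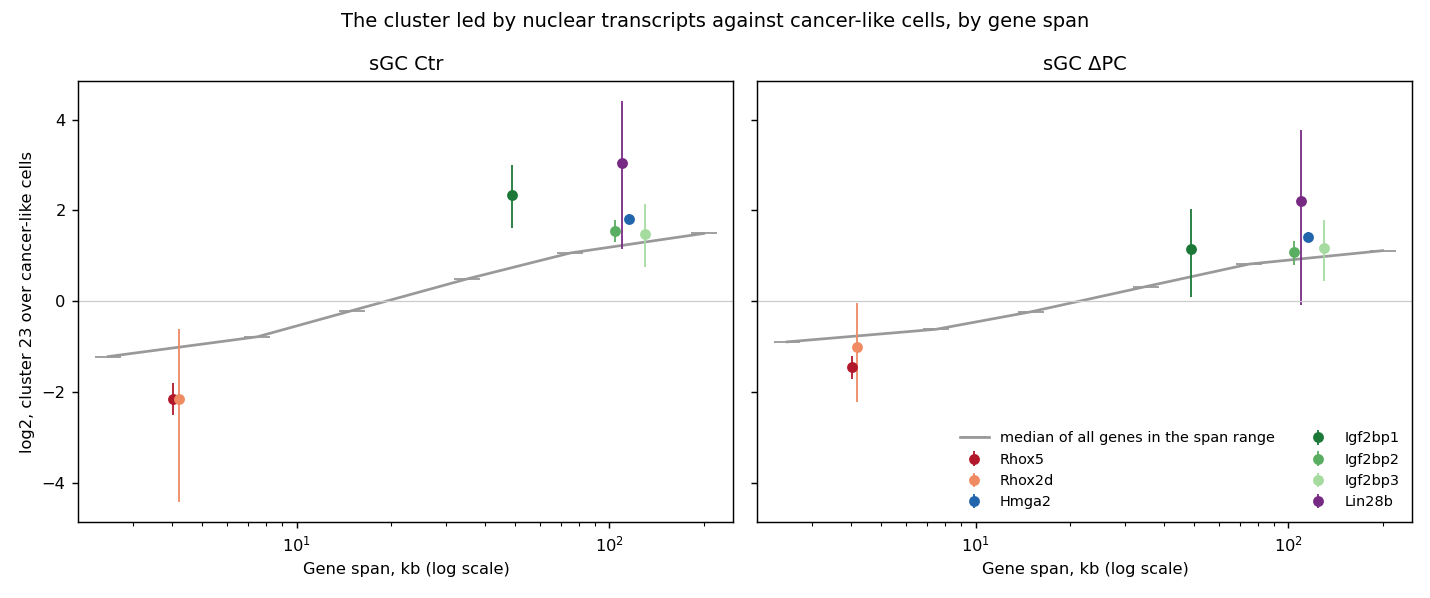
Log2 level in cluster 23 over cancer-like cells against gene span (kb, log scale) for the 7 genes, with exact 95% counting intervals, sGC Ctr on the left and sGC ΔPC on the right; the grey line joins the medians of all genes in 6 span ranges. Rhox5 and Rhox2d, short by the annotated spans used here, lie below 0 and the 5 long genes lie above it. The medians run from -1.22 for genes up to 5 kb to 1.49 for genes over 100 kb in sGC Ctr.

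Between the libraries, 0 of 7 members passed 2-fold in cancer-like cells, where 385 of 14903 genes (2.58%) did, 363 of them higher and 22 lower in sGC ΔPC. The median gene differed by 0.00 log2. The largest difference among the members was that of Hmga2, log2 0.14 (0.12 to 0.15) higher in sGC ΔPC. Rhox5 differed by -0.03 (-0.04 to -0.03), Rhox2d by -0.05 (-0.10 to -0.01) and Igf2bp2 by -0.00 (-0.02 to 0.02). For Igf2bp1 the difference was -0.07 (-0.15 to 0.01), for Igf2bp3 0.07 (0.01 to 0.13) and for Lin28b 0.09 (-0.13 to 0.31).

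Of these small differences, 4 of 7 changed sign once each cell gave the same number of UMIs. With 2000 UMIs per cell, Hmga2 was lower in sGC ΔPC, by log2 -0.08 (-0.13 to -0.03), and Rhox5 higher, by 0.09 (0.05 to 0.13). Igf2bp2 went to -0.18 (-0.29 to -0.07) and Igf2bp3 to -0.30 (-0.57 to -0.03). Igf2bp1 went to -0.82 (-1.24 to -0.40), on 106 UMIs in sGC Ctr and 90 in sGC ΔPC. Rhox2d went to 0.17 (-0.03 to 0.37) and Lin28b to 0.25 (-1.02 to 1.61).

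Within clusters Hmga2 was higher in sGC ΔPC in 8 of 9, with log2 0.48 in the mesenchymal cluster 9 and -0.08 in cluster 13 at the ends. Rhox5 was lower in 8 of 9 clusters, from -0.15 in cluster 11 to 0.09 in cluster 13. Cluster 13 also carried macrophage markers at 3811 and 3148 CPM, far above the 279 and 600 CPM of all cancer-like cells. Igf2bp3 was higher in 7 of 9 clusters, up to 0.39 in the hypoxic cluster. Lin28b ranged from -1.10 in cluster 10 to 1.91 in cluster 9, on 5 and 25 UMIs and on 45 and 22 UMIs in sGC ΔPC and sGC Ctr.

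Outside the cancer-like cells, some members differed more between the libraries. In EC-like cells Rhox5 was at 162 CPM in sGC Ctr and 498 CPM in sGC ΔPC (log2 1.62, 1.47 to 1.78), and Rhox2d (2.06), Hmga2 (1.43) and Igf2bp3 (3.04, on 4 and 64 UMIs) were also at least 2-fold higher, where 307 of 9011 genes (3.41%) were. In fibroblast-like cells Rhox5 (log2 1.95, 1.65 to 2.25) and Hmga2 (1.59, 1.27 to 1.92) were higher, where 181 of 8456 genes (2.14%) were. In these classes the keratin level, in % of that in cancer-like cells, differed the same way. It was 24.2% and 78.9% in EC-like and 6.51% and 15.6% in fibroblast-like cells. In pericyte-like cells it did not, at 79.7% and 74.6%, while Rhox5 was at 311 and 460 CPM. The part of cancer-cell RNA in these differences was not tested.

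**Figure D5:**
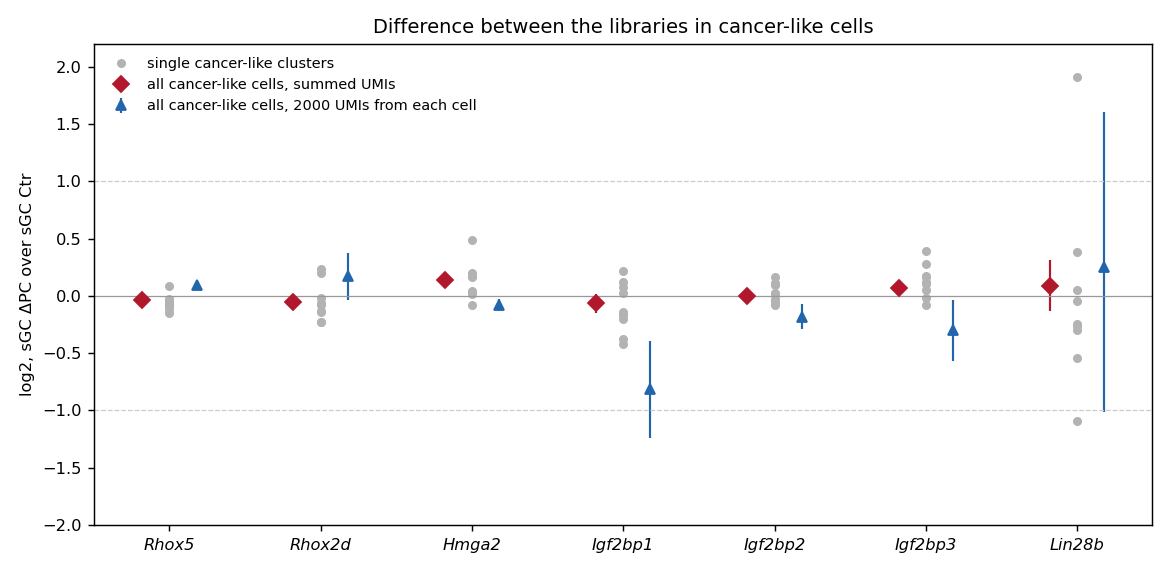
Log2 difference between sGC ΔPC and sGC Ctr in cancer-like cells for each gene, as summed UMIs (diamonds), with 2000 UMIs taken from each cell (triangles), both with exact 95% counting intervals, and in single clusters (grey dots); dashed lines mark 2-fold. The summed differences lie between -0.07 and 0.14, and Igf2bp1 moves to -0.82 when each cell gives 2000 UMIs.

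For each member, 11811 genes were ranked by how closely their levels rose and fell with it, by Pearson's r. The 60 points were the clusters with at least 50 cells in a library (29 of 31 clusters in sGC Ctr and all 31 in sGC ΔPC). The points share libraries and depth, and the share of cancer RNA in a cluster moves every gene of the cancer cells together. Rhox5 was closest to Rhox2g (r 0.99), Rhox2d (0.98) and Rhox2h (0.97), all of its own cluster. Hmga2 was closest to Xist (0.97), Pvt1 (0.97) and Tenm4 (0.96). Xist is itself on the list of nuclear RNA.

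Igf2bp1 was closest to Xist (0.95), Hmga2 (0.93) and Zmat3 (0.93), and Igf2bp2 to Ank3 (0.96), Mex3a (0.95) and Hmga2 (0.95). Igf2bp3 had Hmga2 (0.92), Wdr60 (0.92) and Nmt2 (0.91) nearest, and Lin28b Syne2 (0.82), Tiam2 (0.81) and Ttll4 (0.81). Hmga2 was thus among the 3 nearest genes of each Igf2bp gene. Rhox5 and Hmga2 had r 0.74 over these 60 points but -0.80 over the 18 points of cancer-like clusters.

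Of 32 other Rhox symbols, 21 had 0 UMIs in cancer-like cells and 3 had 50 or more. Of all 32285 genes, 10260 had 0 and 14903 had 50 or more. The counts of Rhox2g and Rhox2h are uncertain like those of Rhox2d. Of the 311 stretches of 90 bases in their last 400 bases, 74 and 67 also occur in another Rhox2 transcript. Shared stretches of the other symbols were not counted. Rhox2g stood at 63.1 CPM in each library and Rhox2h at 80.3 and 82.7 CPM, while Rhox3g gave 0.211 and 0.192 CPM.

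Other genes of the let-7 pathway differed little between the libraries. The 12 symbols on the list name 10 genes, since Zcchc11 and Zcchc6 are older names of Tut4 and Tut7. All 10 were in the tables and 9 had at least 50 UMIs. Of these 9, 0 passed 2-fold, where 385 of 14903 genes (2.58%) did. Their median log2 was -0.03, against 0.00 for all genes. They included Dicer1, which cuts microRNA precursors (28.9 and 26.0 CPM, log2 -0.15), and Tut4 (43.8 and 41.6 CPM, log2 -0.08), which tags let-7 precursors that Lin28 proteins hold. Trim71, an embryonic let-7 target, was at 2.35 and 2.53 CPM. It was the only 1 of the 9 at least 4-fold higher than in macrophage-like cells in both libraries (log2 2.79 and 2.41), where 417 of 14087 genes (2.96%) were.

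Of 20 let-7 target genes, 1 passed 2-fold, where 385 of 14903 genes (2.58%) did. Thbs1, which encodes an inhibitor of vessel growth, was at 5.02 CPM (1762 UMIs) in sGC Ctr and 12.3 CPM (3532 UMIs) in sGC ΔPC, log2 1.29 (1.21 to 1.38). The log2 ratio of cancer-like over macrophage-like cells was -3.50 and -3.60 for this gene, and macrophage markers in cancer-like cells stood at 279 CPM in sGC Ctr and 600 CPM in sGC ΔPC. Their part in this difference was not tested. The list had a median log2 of 0.02.

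Among 10 mRNAs known to be bound by Igf2bp proteins, 9 had at least 50 UMIs and 0 passed 2-fold, beside 2.58% of all genes. Their median log2 was 0.15. Actb differed by 0.58 (3281 and 4895 CPM), Ptgs2 by 0.51 (25.8 and 36.7 CPM) and H19 by 0.45 (52.7 and 72.0 CPM). Myc (112 and 118 CPM) differed by 0.07. For Actb the log2 ratio of cancer-like over macrophage-like cells was -2.24 and -1.67.

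Of 25 other oncofetal and germline genes, 4 had 0 UMIs in cancer-like cells and 11 had at least 50. Over all 32285 genes these counts were 10260 and 14903. Between the libraries 0 of those 11 passed 2-fold, beside 2.58% of all genes. Hmga1, the close relative of Hmga2, stood at 99.7 and 103 CPM (log2 0.05). In cluster 23, where Hmga2 was higher, it was lower than in cancer-like cells, with log2 -1.89 and -1.62. Plac1, a placental gene of the X chromosome, was at 8.00 and 6.98 CPM, and Peg10 at 11.8 and 11.6 CPM. Afp, the classic oncofetal protein of liver tumors, had 29 and 25 UMIs in cancer-like cells.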

How the data were processed

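The authors deposited whole-number UMI counts per gene and barcode, made with Cell Ranger 6.1.1 on mm10 per the labels, for barcodes called as cells. Whether intronic reads were counted is not given in the sources used here. Their later cell filter and cluster labels were not used here.

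Barcodes with mitochondrial UMIs of 10% or more were left out, as were those whose UMIs or genes lay over 3 median absolute deviations from their library's median (log scale). Each cell was scaled to 10000 counts before the log, and 3000 variable genes, without the 7 members, gave 20 principal components (scanpy 1.11.5, numpy 2.4.6, Python 3.11.15). Mutual nearest neighbors (20) joined the libraries, and Leiden (leidenalg 0.10.2, 15 neighbors, resolution 1.0) gave the clusters. A class was called from its markers where at least 3 of them, and 50% of its list, were found in 25% of the cells and reached 25% of the highest cluster's level. A called host class took precedence over cancer-like, and a cluster under 1/3 of its library's median depth with no marker among its 10 leading genes stayed unnamed. These naming details were set after the clusters had been seen, and the members and gene lists were chosen with earlier results of these data known.

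UMIs were summed per class and cluster. Intervals (scipy 1.17.1) are exact Poisson for CPM, Clopper-Pearson for shares and exact conditional for ratios, at 95%. Counts over all genes took those with at least 50 UMIs and a pseudocount of 0.5. These steps were tested on simulated data. Doublets were kept. The alternative without them left out the highest Scrublet scores at the expected rate (1195 and 4049 barcodes), because the caller's own threshold marked 0 cells in sGC ΔPC. Other alternatives changed the cell filter, the resolution, the joining, the clustering genes, the depth (2000 UMIs per cell), the shares of other RNA, the minimum of UMIs, the pseudocount and the scaling. The genes to be named were the members, the genes of the lists with at least 50 UMIs in cancer-like cells and, for each member, the 3 genes with the highest r, on the scale of log2(CPM + 1) over clusters of at least 50 cells and genes of at least 1000 UMIs. Other genes are named for their role, after their values were seen. Sequences are from the RefSeq tables and the GENCODE annotation of the same build, mm10 (GRCm38.p6).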

Additional observations from a re-analysis of the deposited data

Results flagged for a closer look

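The barcodes that the cell filter left out, 2787 in sGC Ctr and 3133 in sGC ΔPC, enter no comparison above, yet they carried UMIs of all 7 genes. Summed over the 7, the level was 1020 CPM (1002 to 1039) in sGC Ctr and 1087 CPM (1074 to 1100) in sGC ΔPC, where a count of 0 would allow up to 0.263 and 0.124 CPM. That limit shows only that the genes were counted at all. In all kept cells together, Rhox5 stood at 592 and 574 CPM and Hmga2 at 395 and 422 CPM. The barcodes left out have no control of their own. Rhox5 was at 239 and 393 CPM there and Hmga2 at 626 and 546 CPM, so that UMIs of Hmga2 outnumbered those of Rhox5 in both libraries. In the sum of kept cancer-like cells the reverse held, but cluster 1 of both libraries and cluster 9 of sGC ΔPC also had more UMIs of Hmga2. Lin28b was at 2.90 CPM (33 UMIs) and 2.47 CPM (60 UMIs).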

How the results depend on the processing

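The count of members at least 4-fold higher in cancer-like than in granulocyte-like and T cell-like cells was 0 of 7 under every alternative run, and so was that of members past 2-fold between the libraries in cancer-like cells. In the main setting 0.0216% and 2.58% of all genes passed these limits, so that 0 of 7 is near those shares. The count of pairs of a member and a cancer-like cluster was 0 except with a minimum of 200 genes per cell in place of the limits at 3 median absolute deviations, where it was 2 of 70 pairs (Igf2bp1 and Lin28b, both lower in 1 cluster). The share of pairs over all genes was not taken for that setting, and was 4.28% in the main one. With each library clustered alone the count of pairs has no value, since no cluster is then shared. The count against macrophage-like cells, a comparison added after the data were seen, was 3 of 7, beside 2.96% of all genes. It was 7 in cells with low shares of other RNA (6.58% of genes), 7 with doublets left out (6.34%), 7 with the minimum of 200 genes (8.18%) and 7 with each library clustered alone (6.35%). The cause was not tested. It was 4 at resolution 2.0 (4.78%) and 2 with 2000 UMIs per cell (1.10%). Granulocyte-like cells alone, and the unnamed cluster 8 counted as cancer-like, were also added after the data were seen and moved no count. With 2000 UMIs per cell the differences of Rhox5, Rhox2d, Hmga2 and Igf2bp3 between the libraries changed sign. The share of all genes past 2-fold between the libraries, 2.58%, was 5.70% with a minimum of 10 UMIs. No paired analysis was possible because each group has 1 library, and no replicate could be left out.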
